A study of Mus musculus with 6 samples.

Results

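Cells that lose water to a concentrated medium take up or make small organic molecules, the organic osmolytes, and release them again when they swell. The genes described here are 8 named components of that system: the transcription factor gene Nfat5, the osmolyte carrier genes Slc5a3, Slc6a6, Slc6a12 and Slc38a2, the water channel gene Aqp1, the kinase gene Sgk1 and the anion channel subunit gene Lrrc8a. The list was given by name and role, with no threshold on measured values, but with earlier results of these data known. Each of the 8 symbols matched 1 gene among the 55487 gene identifiers counted, and all 8 passed the filter on low counts that left 19015 genes for testing.

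Bulk polyA RNA sequencing was performed on 6 cultures of primary cells from the skin of C57BL/6 mice, labelled as endothelial cells (ECs) and isolated with MicroBeads against CD31. Each isolation pooled the skin of 4 to 6 mice aged 2 to 3 months. The medium held 5 mmol/L glucose for 3 cultures (normal glucose) and 20 mmol/L for the other 3 (high glucose) over 48 hours, and no allele or further agent distinguished the groups. The study's captions count the replicates as mice, but its methods and the labels describe pooled skin and do not say whether each culture came from its own isolation, so p-values measure the spread between these cultures, which may be technical. No group with an inert sugar was included: the 15 mmol/L of added glucose also raises the osmolarity of the medium, and the effects of glucose and of osmolarity cannot be told apart here.

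Library totals lay between 120192466 and 146881356 counts, so that a floor of 3 counts corresponded to 0.0204 to 0.0250 CPM. CPM is the usual scaled unit of sequencing depth, the count of a gene relative to its library total. CPM values of tested genes are scaled by TMM factors, which correct for differences in library composition, whereas this floor, the sums over markers and untested genes use the library total alone. Fold changes are log2, high minus normal glucose, with their SE. A gene was called where the adjusted p was under 0.05 in edgeR's quasi-likelihood test. The label of the cells was checked against markers. Of 18 endothelial markers, 11 were below 1 CPM and Sox17 had 0 counts in all 6 libraries. Pecam1, the gene of CD31, had 12 to 19 counts in normal and 9 to 18 in high glucose, and Cdh5, which encodes the endothelial cadherin, had 231 to 242 and 91 to 130. The summed level of the endothelial list was 230 to 256 CPM in normal and 192 to 199 CPM in high glucose, whereas that of 12 fibroblast markers was 41120 to 44030 and 68440 to 72460 CPM, led by the collagen gene Col3a1. These values go against the label, and the cells are therefore called cultures below. For the remaining lists, 6 mural markers summed to 412 to 442 and 318 to 336 CPM, 5 adipocyte markers to 4416 to 4755 and 6247 to 6639 CPM, 6 macrophage markers to 8.92 to 10.1 and 5.61 to 6.36 CPM, and 7 keratinocyte markers to 4.18 to 5.28 and 4.40 to 4.87 CPM. Such sums follow the most abundant genes of a list. In the adipocyte list that gene was Lpl, at 4063 to 4306 CPM in normal and 6222 to 6680 CPM in high glucose. Fabp4 came next with 148 to 198 and 165 to 199 CPM, and Cidec was below 1 CPM in every culture. Of these 5 adipocyte markers, 4 were called higher. Of the 12 fibroblast markers, 8 were called higher and 3 lower (S100a4, Thy1 and Twist2), and of the 6 mural markers 1 higher (Rgs5) and 3 lower. Among all tested genes 31.4% were called. The part of cell makeup in the results was not tested, and in bulk RNA fewer cells of a type cannot be told apart from less RNA per cell.

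NFAT5, also called TonEBP, is the transcription factor that cells activate when the medium becomes hypertonic. It binds tonicity-responsive enhancers, whose shared core is TGGAAA, and is known for raising the carriers of myo-inositol (SMIT1, from Slc5a3), betaine (BGT1, from Slc6a12) and taurine (TauT, from Slc6a6), as well as aldose reductase, which makes sorbitol from glucose. Much of this is known from the kidney medulla, where the surrounding fluid is far more concentrated than in skin.

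Promoters of 7 of the 8 genes were in the RefSeq promoter table (GRCm38.p6, 250 bases before to 50 after each start), with 16 promoters in all. Slc6a6 had no entry. The letters TGGAAA were searched on both strands and occurred in 3 of the 16 promoters, 1 of Slc6a12 and 2 of Sgk1, against 21.4% of all 32851 promoters in the table. The longer tonicity-responsive enhancer motif, which contains that core, occurred in 1 of them, against 4.96% of all promoters. Below are that promoter of Slc6a12, the carrier gene with the largest fall, and the promoter of Slc5a3, the carrier gene with the largest rise of the 8 genes, shown because both encode osmolyte carriers described as NFAT5 targets. Capitals mark TGGAAA. The first lies at chr6:121342324-121342623 and the other at chr16:92058072-92058371, both on the plus strand, written 5′ to 3′.
Slc6a12: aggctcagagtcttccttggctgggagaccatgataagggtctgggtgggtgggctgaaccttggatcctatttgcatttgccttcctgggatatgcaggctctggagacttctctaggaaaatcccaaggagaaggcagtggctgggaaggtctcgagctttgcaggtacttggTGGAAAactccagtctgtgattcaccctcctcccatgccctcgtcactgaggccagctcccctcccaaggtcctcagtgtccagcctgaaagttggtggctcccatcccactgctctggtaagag
Slc5a3: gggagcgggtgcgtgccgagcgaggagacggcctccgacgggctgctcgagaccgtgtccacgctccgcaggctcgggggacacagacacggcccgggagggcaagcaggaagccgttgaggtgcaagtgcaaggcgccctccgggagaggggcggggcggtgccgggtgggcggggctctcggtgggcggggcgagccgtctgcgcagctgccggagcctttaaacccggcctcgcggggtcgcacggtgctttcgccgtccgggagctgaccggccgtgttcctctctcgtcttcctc
In this Slc6a12 promoter the longer motif begins 75 bases before the RefSeq start and lies on the strand of the gene. All of this promoter lies before the first base of the gene as counted (chr6:121343076), so its start is not the one of the counted gene. The GC content of this promoter was 55.7%, against 73.3% in the Slc5a3 promoter, in which TGGAAA did not occur in either direction. The other 4 promoters of Slc6a12 in the table did not hold TGGAAA either. A match describes letters only, and its absence from these 300 bases says nothing of other positions or of binding.

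Among the 8 genes, 3 were higher in high glucose (Slc5a3, Slc38a2 and Lrrc8a), 2 were lower (Slc6a12 and Aqp1), and Nfat5, Slc6a6 and Sgk1 did not pass the threshold, beside 16.9% of all tested genes called higher and 14.5% called lower (31.4% in all). The groups did not overlap for 6 of the 8, with 4 higher and 2 lower, beside 46.4% of all tested genes. Both directions thus occurred, and within the osmolyte carriers the genes for the inositol and betaine carriers moved in opposite directions. Exact permutation tests of single genes cannot fall below 0.1 with 3 cultures against 3, and gave that value for each of the 6 genes whose groups did not overlap.

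**Figure D1:**
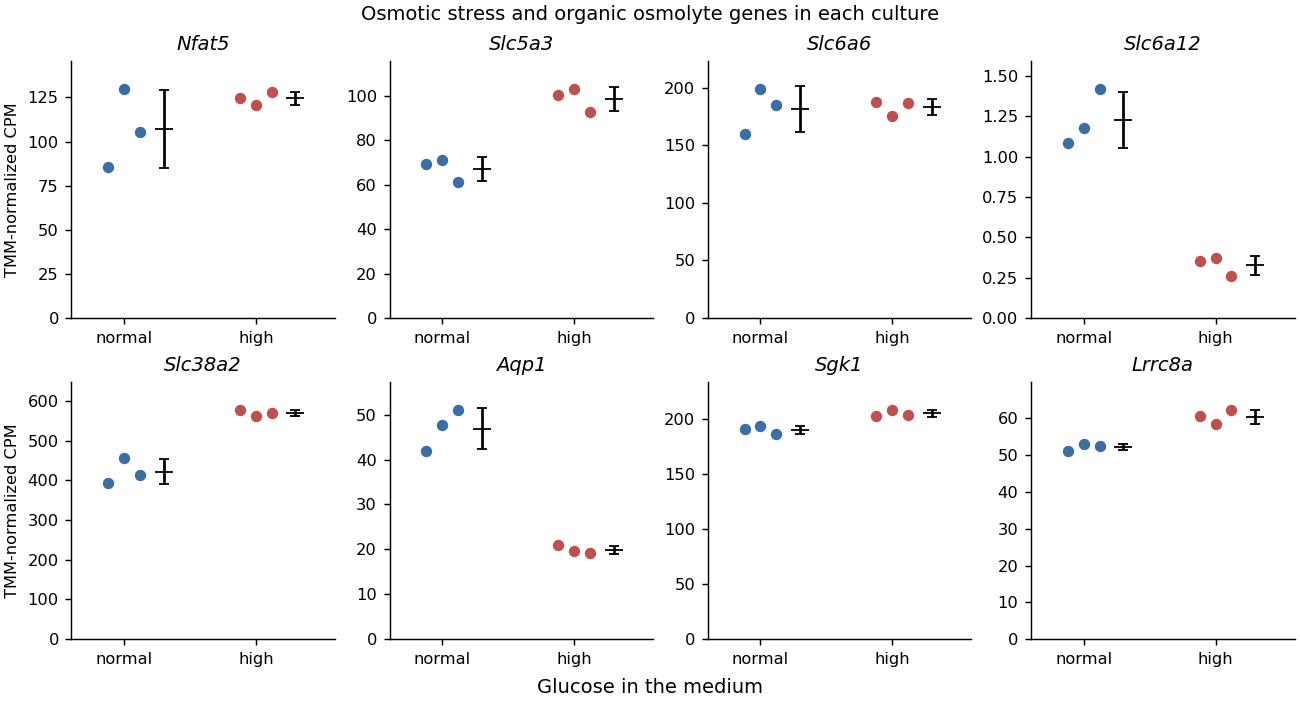
TMM-normalized CPM (y axes, from 0) of the 8 osmotic stress and organic osmolyte genes in each culture, grouped by glucose (x axes). Points are cultures in the order of replicates 1 to 3, and the bars beside them show the mean ± SD (n = 3). The groups are separate in all panels but those of Nfat5 and Slc6a6, with the values of Slc6a12 and Aqp1 lower and those of the other 4 higher in high glucose, although Sgk1 did not pass the threshold and was at -0.0058 (log2 fold change) with library size alone.

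Nfat5 (chr8:107293470-107379517, plus strand, GRCm38) was at 85.7, 130 and 106 CPM in normal glucose and at 125, 121 and 128 CPM in high glucose. The normal-glucose cultures spread over a wide range that includes the whole range of the high-glucose cultures. Means were 107 ± 22.2 and 124 ± 3.48 CPM (SD, n = 3). The log2 fold change was 0.22 (SE 0.119, 95% interval -0.05 to 0.48, adjusted p = 0.196, two-sided exact permutation p = 0.4). This estimate depended on normal-glucose replicates 1 and 2. The log2 fold change was 0.37 without replicate 2 (adjusted p = 0.0123) and 0.06 without replicate 1 (adjusted p = 0.59). It was 0.02 once trends of each library with GC content and gene length had been taken out. NFAT5 is also controlled by phosphorylation and by movement into the nucleus, neither of which was measured here.

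Slc5a3 (chr16:92058322-92087473, plus strand) encodes SMIT1, which carries myo-inositol into the cell together with sodium. Its level was 69.1, 70.9 and 61.1 CPM in normal glucose and 100.2, 103 and 92.7 CPM in high glucose. All 3 high-glucose cultures were above all normal-glucose cultures. The means of 67.0 ± 5.24 and 98.7 ± 5.39 CPM gave a log2 fold change of 0.56 (SE 0.0685, adjusted p = 0.000156). The gene lies within Mrps6, a gene of the mitochondrial ribosome on the same strand, and shares 159 exon bases with it, 1.46% of its own. Mrps6 itself fell by 0.28 on the log2 scale (SE 0.0727, adjusted p = 0.0147). When the counts of both genes were added, the log2 fold change was 0.32 (adjusted p = 0.00317), still higher in high glucose but by less.

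Slc38a2 (chr15:96687392-96699730, minus strand) encodes SNAT2, a sodium-coupled carrier of small neutral amino acids that cells also use to restore volume after shrinkage. It stood at 394, 456 and 415 CPM in normal glucose and at 578, 563 and 569 CPM in high glucose. The high-glucose cultures lay within a narrow band above the highest normal-glucose culture. Means of 422 ± 31.8 and 570.2 ± 7.63 CPM gave a log2 fold change of 0.43 (SE 0.0608, adjusted p = 0.000383).

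Slc6a6 (chr6:91684053-91759066, plus strand) encodes the taurine carrier TauT. It was measured at 160.4, 199 and 186 CPM in normal glucose and at 188, 176 and 187 CPM in high glucose. The high-glucose values all lay within the range of the normal-glucose values. The log2 fold change was 0.013 (SE 0.0762, 95% interval -0.16 to 0.18, adjusted p = 0.914, two-sided exact permutation p = 0.8), and its sign varied with scaling and filter. The interval leaves room for a difference of either sign, but not for one as large as the estimates for Slc5a3 or Slc38a2.

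Slc6a12 (chr6:121343076-121365775, plus strand), the gene of the betaine and GABA carrier BGT1 with 1 of its 5 promoters printed above, was scarce. Counts of 136, 167 and 182 in normal glucose stood against 50, 43 and 35 in high glucose, which correspond to 1.09, 1.18 and 1.42 CPM against 0.352, 0.370 and 0.260 CPM. Every high-glucose culture was below every normal-glucose culture. The log2 fold change was -1.91 (SE 0.186, adjusted p = 3.18e-05), a decrease of the mean level by 73.4%, from 1.23 ± 0.173 to 0.327 ± 0.0592 CPM. It had the largest log2 fold change of the 8 genes at the lowest level.

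Aqp1 (chr6:55336432-55348555, plus strand) encodes aquaporin-1, a water channel abundant in endothelium and red cells. Its values were 41.9, 47.7 and 51.1 CPM in normal glucose and 20.9, 19.7 and 19.2 CPM in high glucose, with no overlap. The mean dropped by 57.6%, from 46.9 ± 4.63 to 19.9 ± 0.848 CPM, and the log2 fold change was -1.24 (SE 0.0751, adjusted p = 1.14e-06). The summed level of the endothelial markers was also lower in the high-glucose cultures, as given above. Of the 12 markers tested, 3 were lower (Flt1, Cdh5 and Egfl7) and 3 higher (Tek, Plvap and Erg). These are 50% called, beside 31.4% of all tested genes, with a median log2 fold change of -0.07. The markers differ widely in level. Flt1 was at 52.9 to 56.6 CPM in normal and 38.3 to 38.6 CPM in high glucose. Erg had only 2 to 8 counts in normal and 12 to 15 in high glucose. The part of endothelial content in the fall of Aqp1 was not tested.

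Sgk1 (chr10:21882184-21999903, plus strand) encodes a kinase induced by cell shrinkage and by glucocorticoids. It was at 191, 193 and 186 CPM in normal glucose and at 203, 208 and 204 CPM in high glucose. The groups did not overlap, but the gap between them was small. The log2 fold change of 0.11 (SE 0.0475, 95% interval 0.0039 to 0.22) had an adjusted p = 0.107 and did not pass the threshold. With library size alone as the scaling, the log2 fold change was -0.0058, and the median of all tested genes was then -0.11 in place of 0.0062.

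Lrrc8a (chr2:30237715-30263790, plus strand) encodes the subunit that every volume-regulated anion channel needs. This channel opens when cells swell and releases chloride and organic osmolytes such as taurine. The level was 51.2, 52.9 and 52.6 CPM in normal glucose and 60.6, 58.5 and 62.4 CPM in high glucose, without overlap. Means of 52.3 ± 0.888 and 60.5 ± 1.95 CPM gave a log2 fold change of 0.21 (SE 0.0501, adjusted p = 0.00938). The call was lost with library size alone (0.10, adjusted p = 0.170), without high-glucose replicate 1 (0.19, adjusted p = 0.0643) and without high-glucose replicate 3 (0.17, adjusted p = 0.0958). The annotated read-through gene Gm28035 shares 2853 bases on the same strand with Lrrc8a, 66.23% of the exon bases of Lrrc8a. Gm28035 had 353, 993 and 432 counts in normal and 2011, 977 and 689 in high glucose, and its reads cannot be told apart from those of Lrrc8a over the shared bases. With both counts added, the log2 fold change was 0.30 (adjusted p = 0.00487). Gm28035 has 4238 exon bases in all, so this sum may also hold reads from outside Lrrc8a. Alone, Gm28035 did not pass the threshold (adjusted p = 0.0561).

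**Figure D2:**
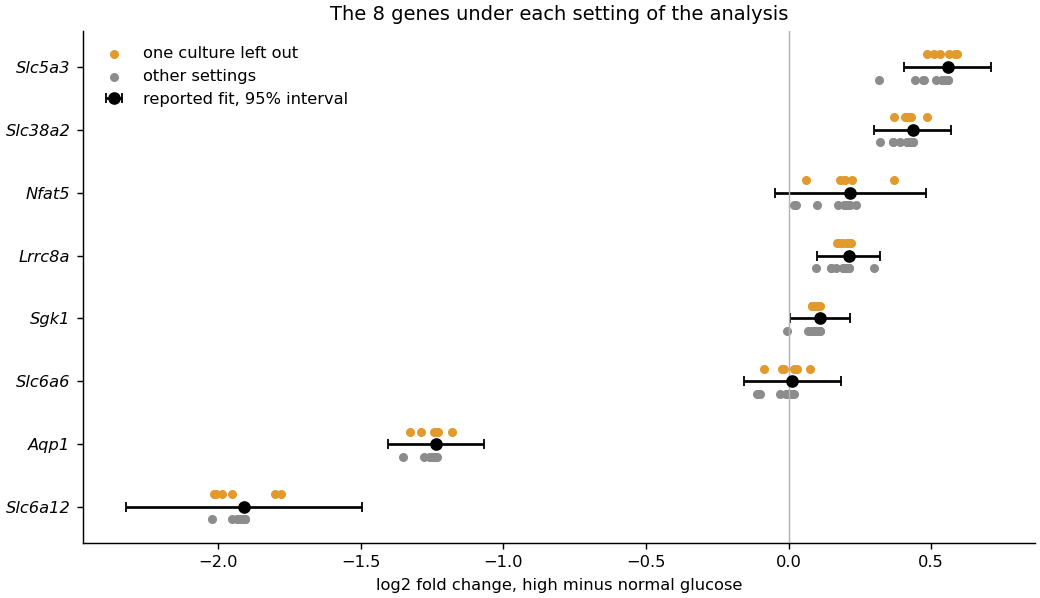
Log2 fold change, high minus normal glucose (x axis), of the 8 genes in the reported fit (black, with 95% interval), with 1 culture left out (orange) and under the other settings (grey). Slc5a3 and Slc38a2 stayed above 0 and Slc6a12 and Aqp1 below 0 under every setting shown, whereas the points of Slc6a6 lie on both sides of 0 and those of Nfat5 range from 0.02 to 0.37.

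Levels of different genes were compared only per kilobase of annotated exon. In normal glucose Slc38a2 was the highest of the 8 with 47.7 ± 3.59 CPM per kilobase (SD, n = 3), before Sgk1 with 38.8 ± 0.770. Slc6a6 with 21.5 ± 2.34 and Aqp1 with 17.9 ± 1.76 followed, with overlapping values, then Lrrc8a with 12.1 ± 0.206. Slc5a3 with 6.14 ± 0.480 and Nfat5 with 5.83 ± 1.21 differed by less than their spread, and Slc6a12 was last with 0.402 ± 0.0568 CPM per kilobase. In high glucose the order was Slc38a2 (64.5 ± 0.864), Sgk1 (41.8 ± 0.591), Slc6a6 (21.7 ± 0.808), Lrrc8a (14.0 ± 0.452), Slc5a3 (9.05 ± 0.494), Aqp1 (7.58 ± 0.323), Nfat5 (6.77 ± 0.190) and Slc6a12 (0.107 ± 0.0194). Aqp1 thus moved from above Lrrc8a to below Slc5a3. The betaine carrier stayed far below the inositol and taurine carriers in both media. Where the length of the longest transcript was used instead, Nfat5 was at 7.97 and Slc5a3 at 6.14 CPM per kilobase in normal glucose. In high glucose they were at 9.26 and 9.05, a gap smaller than the SD of Slc5a3, and Nfat5 then stood above Aqp1 (7.58).

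The genes related to these 8 were described by list, with counts beside the share of all tested genes given above. Over the 9 lists together and without the 8 genes, 107 genes were listed and 94 tested. Of these 21 were higher and 19 lower, 42.6% in all, beside 31.4% of all tested genes. Their median log2 fold change was 0.04 against 0.0062 over all tested genes.

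Of 15 listed carriers of osmolytes, 11 were tested, 4 higher and 1 lower, with a median log2 fold change of 0.03. That is 45.5% called, beside 31.4% of all tested genes. Beside Slc5a3 and Slc38a2, the risers were Slc2a13 and Slc44a1. Slc2a13, which encodes the proton-coupled myo-inositol carrier HMIT, went from 12.2, 15.6 and 14.0 CPM to 23.6, 25.8 and 24.3 CPM, a log2 fold change of 0.82 (SE 0.0849, adjusted p = 4.94e-05). Both tested carriers of myo-inositol were therefore higher in high glucose, while the remaining one of the list, Slc5a11, was not tested because of its low counts. Slc44a1, a choline carrier gene, rose from 76.5 ± 4.49 to 95.3 ± 1.27 CPM (log2 fold change 0.32, SE 0.0557, adjusted p = 0.00167). Slc6a12 was the carrier gene that fell. Choline is the precursor of the betaine that its product carries, but a link between the changes of Slc44a1 and Slc6a12 was not tested.

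Enzymes that make or degrade osmolytes were also divided. Of 17 listed, 13 were tested, with 5 higher, 4 lower and a median log2 fold change of -0.04. The called share was 69.2%, beside 31.4% of all tested genes. The polyol pathway turns glucose into sorbitol through aldose reductase and sorbitol into fructose through sorbitol dehydrogenase. The genes of both steps fell. Akr1b3, the aldose reductase gene, was at 77.4, 71.2 and 79.2 CPM in normal glucose and at 60.9, 63.7 and 62.7 CPM in high glucose, with a fall by 0.28 on the log2 scale (-0.28, SE 0.0560, adjusted p = 0.00345), and Sord, the sorbitol dehydrogenase gene, was at 21.9, 20.1 and 21.0 CPM against 14.1, 15.1 and 14.2 CPM (log2 fold change -0.53, SE 0.0606, adjusted p = 8.89e-05). Neither gene's groups overlapped. Impa1, which encodes the phosphatase that releases free myo-inositol, fell by 0.26 on the log2 scale (adjusted p = 0.00318), and Aldh7a1, whose product oxidizes betaine aldehyde to betaine, fell by 0.19 (adjusted p = 0.0245). Isyna1, which encodes the first enzyme of myo-inositol synthesis from glucose 6-phosphate, rose by 0.22 (adjusted p = 0.0142).

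Fmo1, a flavin monooxygenase gene whose product can make taurine from hypotaurine, rose most in this list, from 11.5, 12.3 and 11.2 CPM to 19.5, 21.7 and 20.8 CPM (log2 fold change 0.83, SE 0.0661, adjusted p = 8.11e-06). Csad, which encodes the decarboxylase on the way to hypotaurine, rose by 0.18 on the log2 scale (adjusted p = 0.0182). Gdpd5 and Gpcpd1, whose products cleave glycerophosphocholine, had log2 fold changes of 0.30 (adjusted p = 0.0314) and 0.21 (adjusted p = 0.0240). The calls of Aldh7a1, Isyna1, Csad, Gdpd5 and Gpcpd1 were lost in 4, 3, 5, 12 and 7 of 17 alternatives each, without a change of direction. Isyna1, Csad, Gpcpd1, Impa1 and Aldh7a1 were named after their values were seen.

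**Figure D3:**
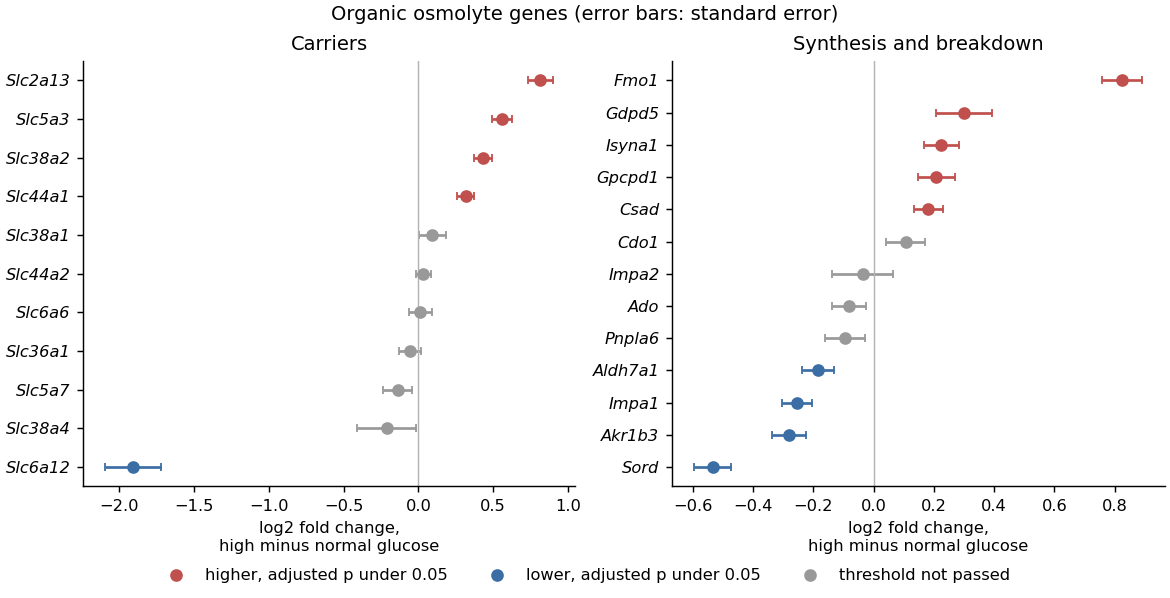
Log2 fold change, high minus normal glucose, with SE (x axes) of the 11 tested carriers of organic osmolytes (left) and the 13 tested genes of their synthesis and breakdown (right), ordered by value. Red genes were higher and blue genes lower at an adjusted p under 0.05, and grey genes did not pass. The inositol carriers Slc2a13 and Slc5a3 are at the top on the left and Slc6a12 far below the rest, while Sord and Akr1b3 are the lowest on the right.

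A list of NFAT5 targets, written with earlier results of these data known, held more genes called lower than higher in high glucose. All 15 were tested, and 8 were lower, 3 higher and 4 not called, beside 14.5% of all tested genes called lower and 16.9% higher. The median log2 fold change was -0.21 against 0.0062 over all tested genes. The list includes 5 of the 8 genes above. The 3 that rose were Slc5a3, Slc38a2 and Tnc, the gene of the matrix protein tenascin-C, which went from 9673, 10629 and 10794 CPM to 14957, 13823 and 14991 CPM (log2 fold change 0.49, SE 0.0605, adjusted p = 0.000156). The 8 that fell were Slc6a12, Aqp1, Akr1b3, the heat shock genes Hspa1a, Hspa1b and Hspa4l, the small heat shock protein gene Cryab, and S100a4, which encodes a calcium-binding protein and also stands on the fibroblast marker list. S100a4 fell furthest after Slc6a12, from 553, 480 and 541 CPM to 219.7, 207 and 224 CPM (log2 fold change -1.27, SE 0.0656, adjusted p = 3.83e-07).

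Hspa1a and Hspa1b are near-identical copies that encode the inducible chaperone HSP70, and reads may be divided between them in an uncertain way. Their log2 fold changes were -0.21 (adjusted p = 0.0386) and -0.25 (adjusted p = 0.00962), and with their counts added it was -0.24 (SE 0.0619, adjusted p = 0.0144). The fall was thus present in the sum, although the call of Hspa1a alone was lost in 6 of 18 alternatives. Cryab fell by 0.42 (adjusted p = 9.26e-05) and Hspa4l by 0.24 (adjusted p = 0.0238) on the log2 scale, both named after their values were seen, and the call of Hspa4l was lost in 3 of 17 alternatives.

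**Figure D4:**
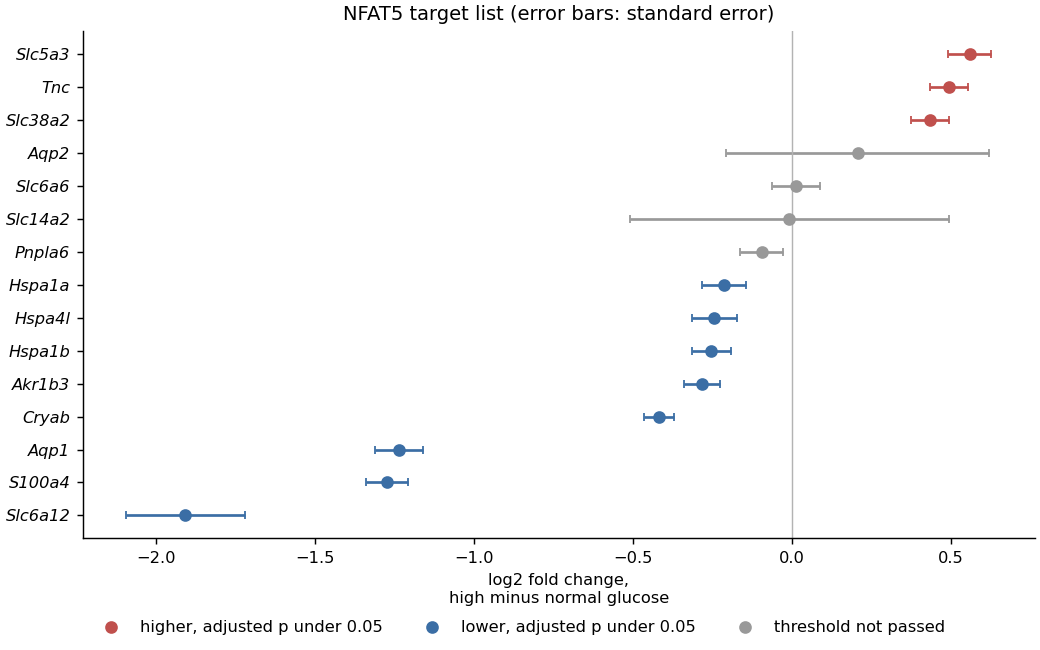
Log2 fold change, high minus normal glucose, with SE (x axis) of the 15 genes on the list of NFAT5 targets, ordered by value. Blue genes (8) were lower and red genes (3) higher at an adjusted p under 0.05, and grey genes (4) did not pass. The wide error bars of Aqp2 and Slc14a2 belong to genes with mean levels of 0.0911 to 0.151 CPM.

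Of the NFAT genes, Nfat5 included, 1 of 5 was called, and of the genes upstream of NFAT5 5 of 18 (27.8%), beside 31.4% of all tested genes. Lists this short cannot set such shares apart from that of all genes. Of the 5 NFAT genes, whose median log2 fold change was 0.21, Nfatc4 was called, at 237 ± 11.3 against 265 ± 8.58 CPM (log2 fold change 0.16, SE 0.0548, adjusted p = 0.0479), and lost the call in 14 of 17 alternatives. Nfatc1 and Nfatc3 had log2 fold changes of 0.21 (adjusted p = 0.0775) and 0.22 (adjusted p = 0.0649), and Nfatc2, at 0.245 and 0.141 CPM, of -0.79 (SE 0.351, adjusted p = 0.114). Unlike Nfat5, these 4 genes encode factors that are activated by calcineurin. Of 18 genes upstream of NFAT5, 3 were higher and 2 lower, with a median log2 fold change of 0.09.

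The 3 risers were Parp1, which encodes a poly(ADP-ribose) polymerase that binds NFAT5 (log2 fold change 0.23, adjusted p = 0.00560), Akap13, the gene of the anchoring protein Brx (0.30, adjusted p = 0.00839), and Atm, a DNA damage kinase gene (0.29, adjusted p = 0.0310). The value of Akap13 was -0.0033 with trends on GC content and length removed, and the calls of Parp1, Akap13 and Atm were lost in 1, 5 and 8 of 17 alternatives. Mapk11, which encodes the p38 beta kinase (-0.26, adjusted p = 0.0211), and Rac1, the gene of a small GTPase (-0.21, adjusted p = 0.0350), were lower, the latter named after its value was seen, and lost their calls in 2 and 3 of 17 alternatives. The value for Mapk14, the p38 alpha kinase gene of the same list, was 0.16 (adjusted p = 0.0773).

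The subunits of the volume-regulated anion channel changed in different directions around Lrrc8a, 2 of the 5 higher and 2 lower, with a median log2 fold change of -0.10. These calls are 80% of only 5 genes, beside 31.4% of all tested genes. The channel is built from LRRC8A and at least 1 of its 4 paralogues, and the paralogue sets which osmolytes pass. Lrrc8d, whose product favours the passage of taurine and other uncharged osmolytes, was at 25.9, 27.2 and 26.2 CPM in normal glucose and at 12.4, 12.7 and 12.5 CPM in high glucose. The groups were far apart and each was narrow, with a log2 fold change of -1.07 (SE 0.0536, adjusted p = 3.12e-07). Lrrc8c fell by 0.32 on the log2 scale (SE 0.0593, adjusted p = 0.00254) and Lrrc8e rose by 0.41 (SE 0.0700, adjusted p = 0.00143), from 10.6, 9.93 and 9.52 to 13.1, 12.9 and 13.9 CPM. Lrrc8b, the scarcest per kilobase, had a log2 fold change of -0.10 (SE 0.126, adjusted p = 0.592). The calls of Lrrc8c, Lrrc8d and Lrrc8e held in all 17 alternatives.

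Summed over the 5 genes, the level per kilobase was 21.3 ± 0.525 CPM in normal and 22.0 ± 0.602 CPM in high glucose, a difference of about the size of these SDs. Per kilobase of the longest transcript the sums were 24.4 ± 0.612 and 23.8 ± 0.605 CPM, so that the sign of this difference depended on the length used. Within that sum the share of Lrrc8a was 57.0%, 56.2% and 57.8% in normal and 64.1%, 63.1% and 63.8% in high glucose. The share of Lrrc8d was 9.87%, 9.87% and 9.86% in normal and 4.50%, 4.71% and 4.38% in high glucose. With the longest transcript, which is much shorter than all exons of Lrrc8d together, its share was 18.9% ± 0.005 and 9.20% ± 0.318, and that of Lrrc8a 49.9% ± 0.747 and 59.1% ± 0.568, so the levels of the shares depended on the length, while the share of Lrrc8a was higher and that of Lrrc8d lower in high glucose with either length. By all exons, Lrrc8c went from 19.2% ± 0.808 to 14.9% ± 0.261, Lrrc8e from 11.4% ± 0.773 to 14.6% ± 0.208 and Lrrc8b from 2.59% ± 0.324 to 2.34% ± 0.227. Shares of 1 sum are tied to each other, so a rise of one lowers the rest. They describe RNA per kilobase and not the make-up of channels, and reads of Gm28035 were not counted to Lrrc8a here.

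**Figure D5:**
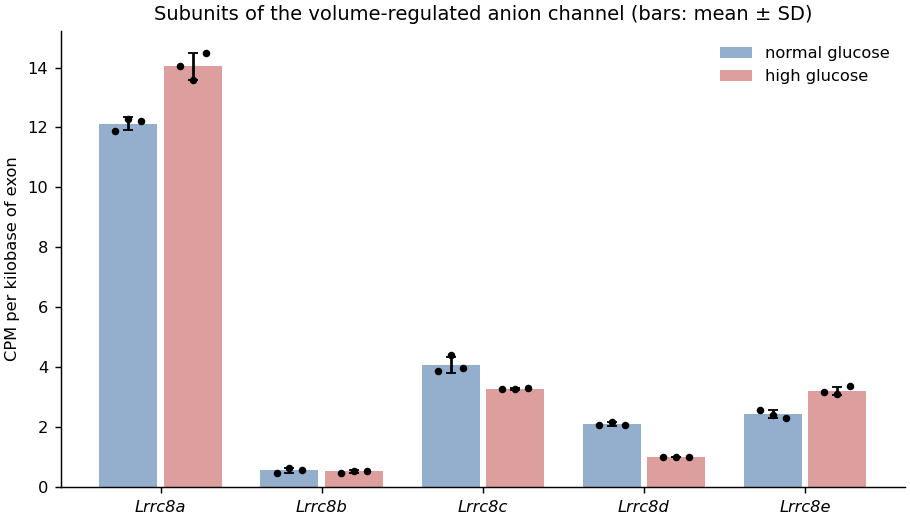
CPM per kilobase of exon (y axis, from 0) of the 5 genes of the volume-regulated anion channel in normal (blue) and high glucose (red). Bars show the mean ± SD (n = 3) and points the cultures. Lrrc8a was the highest in both groups, Lrrc8d went from 2.10 to 0.998 and Lrrc8e from 2.42 to 3.22 CPM per kilobase.

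Aqp1 was the aquaporin gene called. Of 12 aquaporin genes, 8 were tested, and the 7 others tested did not pass, with a median log2 fold change of -0.25 over the 8 and with mean levels between 0.0929 and 1.58 CPM. Aqp4, Aqp6 and Aqp12 had 0 counts in all 6 libraries. The floor of 0.0204 to 0.0250 CPM covers counting error only, and it would be higher if both reads of a pair were counted. Aqp1, at 46.9 CPM in normal glucose, was thus the one aquaporin gene well above 2 CPM, and it fell. In the list of SGK kinases and substrates, 11 of 12 genes were tested, with 3 higher, 1 lower and a median log2 fold change of 0.11. Called shares were 36.4% here and 12.5% for the aquaporins, beside 31.4% of all tested genes. Nedd4l, which encodes a ubiquitin ligase that SGK1 phosphorylates, fell from 49.995, 55.5 and 52.0 CPM to 38.4, 38.7 and 40.6 CPM (log2 fold change -0.42, SE 0.0565, adjusted p = 0.000291). Ndrg2 and Foxo3, both SGK1 substrate genes, had log2 fold changes of 0.22 (adjusted p = 0.0159) and 0.21 (adjusted p = 0.0275), and Rictor, the gene of a component of the complex that activates SGK1, of 0.28 (adjusted p = 0.0447). These 3 calls were lost in 5, 9 and 13 of 17 alternatives. Sgk3, a paralogue of Sgk1, had a log2 fold change of 0.29 (SE 0.109, adjusted p = 0.0701) at 2.53 and 3.08 CPM, and Sgk2 was not tested because of its low counts.

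Ion carriers that restore cell volume, together with the WNK kinases that control them, were 24 tested genes, 5 higher and 5 lower. Their median log2 fold change was 0.03, and 41.7% were called, beside 31.4% of all tested genes. Atp1b1, which encodes a beta subunit of the sodium pump, was at 4.96, 4.63 and 4.62 CPM against 2.35, 2.49 and 2.10 CPM (log2 fold change -1.03, SE 0.0990, adjusted p = 2.77e-05), and Trpv4, the gene of a swelling-activated calcium channel, at 2.17, 2.24 and 2.63 CPM against 1.61, 1.49 and 1.27 CPM (log2 fold change -0.69, SE 0.130, adjusted p = 0.00253). Both were lower in every high-glucose culture. Slc9a3r1, the gene of the scaffold protein NHERF1, was higher (log2 fold change 0.37, SE 0.0634, adjusted p = 0.00136). Slc12a2, the gene of the cotransporter NKCC1 that loads chloride after shrinkage, had a log2 fold change of 0.18 (SE 0.0624, adjusted p = 0.0510), and Wnk1 of 0.17 (SE 0.0890, adjusted p = 0.175), the latter with overlapping groups.

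The genes whose profile over the 6 cultures was nearest to each of the 8 were found by Euclidean distance between mean-centred log2 CPM values, over 12416 protein-coding genes with a mean of at least 1 CPM. For Slc5a3 they were Nrep (distance 0.0615) and Elovl7 (0.0679), for Slc38a2 Arid1a (0.0510) and Sema6a (0.0520), and for Lrrc8a Unk (0.0433) and Tmem39a (0.0455). For Aqp1 they were Dusp4 (0.0858) and Tll1 (0.149). Slc6a12 had no near neighbour on that scale, with Kcnab1 at 0.291 and Adcyap1r1 at 0.373. Its counts of 35 to 182 per library add counting noise to these distances, and the size of that part was not tested. The nearest to Nfat5 were Eml6 (0.0878) and Hipk2 (0.0985), to Slc6a6 Arhgef5 (0.0435) and Nup205 (0.0479), and to Sgk1 Zbtb25 (0.0320) and Osbp (0.0354). With 6 cultures in 2 groups, such a distance mostly reflects the difference between the groups.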

How the data were processed

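Bulk RNA sequencing of 6 cultures was analysed, 3 in normal and 3 in high glucose, grouped by their titles. The authors trimmed reads with Trimmomatic, aligned them to GRCm38 (mm10) with HISAT2 and deposited whole-number counts per gene from StringTie, without normalization. Tool versions, annotation release and strand setting are not given in the sources used here. The methods of the paper and the labels differ on RNA kit and sequencer. Among low counts 2 was nearly as frequent as 1 (9280 against 10842 entries), so both reads of a pair may have been counted. Floors cover counting error only and would then be higher. The 346 identifiers without a symbol held 0.0340% of counts.

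In R 4.3.3, counts were filtered with filterByExpr (minimum count 10, minimum total 15), scaled by TMM and compared with the quasi-likelihood test of edgeR 4.0.16, with Benjamini-Hochberg adjustment over 19015 genes, and tested on simulated data. The biological coefficient of variation was 8.44%. No 2 replicates agreed within counting noise (chi-square per degree of freedom at least 9.76). Exon lengths and positions came from GENCODE for GRCm38, promoters from RefSeq.

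Alternatives were DESeq2 1.42.0 (its test and its size factors), upper quartile and library-size scaling, other filters and thresholds, the likelihood ratio test, the replicate block, each culture left out, halved counts, a trend on GC content and length removed per library (mgcv 1.9.3), longest transcripts and 1 promoter strand. Counts of overlapping or near-identical genes were added, and the LRRC8 shares repeated with longest transcripts, after the data had been seen.

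The 8 genes and all lists were chosen with earlier results of these data known, so lists are described by counts and medians. Genes named beside the 8 were paralogues, the 4 called genes with the largest change per list with a mean of at least 1 CPM, Akr1b3, Sord, Slc12a2, Wnk1, Hspa1a and Hspa1b, exon-sharing genes, cell type markers and 2 nearest profiles per gene. Mapk14 and the scarce genes Aqp2, Slc14a2, Aqp4, Aqp6, Aqp12 and Slc5a11 were also named after their values were seen. The values of 1 gene that this rule would name are not reported here.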

Additional observations from a re-analysis of the deposited data

How the results depend on the processing

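The log2 fold changes of Slc5a3, Slc6a12, Slc38a2 and Aqp1 kept their direction under every alternative in which they were tested. Slc6a12 was not tested where a mean of at least 1 CPM was required, which left 1 of the 8 genes called lower. With an absolute log2 fold change of at least 1, 0 of the 8 were called higher, so Slc5a3 and Slc38a2 lost their calls. Under the other alternatives the calls of these genes held. Leaving out each culture in turn gave ranges of 0.49 to 0.59 for Slc5a3, -2.01 to -1.78 for Slc6a12, 0.37 to 0.48 for Slc38a2, -1.33 to -1.18 for Aqp1, 0.17 to 0.22 for Lrrc8a, 0.061 to 0.37 for Nfat5 (called at 0.37, without normal-glucose replicate 2), 0.08 to 0.11 for Sgk1 and -0.087 to 0.074 for Slc6a6. The number of the 8 called higher was then 2 to 4. Lrrc8a was 0.10 and not called with library size alone, where Sgk1 was -0.0058. Slc6a6, never called, changed sign with upper quartile scaling (-0.029), library size alone (-0.10), no filter (-0.0077), a mean of at least 1 CPM (-0.0040), halved counts (-0.0061) and the trend on GC content and length removed without (-0.11) and with the replicate block (-0.11). With that trend removed, Wnk1 was -0.13 and -0.13, and Akap13 -0.0033 and -0.0037, without and with the block. Of 18 counts of calls over lists of genes, 2 stayed within 1.5 times of their value under every alternative. The causes were not tested.

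Over all genes, 3212 were higher and 2757 lower (46.2% of calls). With library size alone these were 1819 and 4884 (72.9%), with upper quartile scaling 56.5% of calls were lower, at an adjusted p under 0.01 they were 1946 and 1671, and with an absolute log2 fold change of at least 1 they were 395 and 542. Leaving out 1 culture gave 1988 to 3149 higher and 2048 to 3065 lower, fewest higher without high-glucose replicate 3 (1988) and replicate 1 (2010), with fewer cultures in the fit. With the replicate block there were 2909 and 2418, and the calls of the 8 genes did not change. Among the other named genes Slc12a2 was then called (0.18, adjusted p = 0.0464), and Nfatc4, Rac1, Gdpd5 and Hspa1a were not (adjusted p = 0.0581, 0.0581, 0.0593 and 0.0753). Same-numbered cultures did not deviate together (correlations -0.02, 0.0038 and 0.01), so the numbers were not taken as pairs, and 1 of 3 high-glucose cultures correlated best with its own number. Per kilobase of the longest transcript, Nfat5 was at 7.97 and 9.26, Slc6a6 at 29.4 and 29.7, Slc38a2 at 69.0 and 93.2 and Sgk1 at 61.4 and 66.3 CPM in normal and high glucose, and Slc6a12 at 0.465 in normal glucose. TGGAAA on the strand of the gene alone occurred in 2 of the 16 promoters. Depth limits Slc6a12 to 35 to 182 counts per library.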
